A study of Mus musculus with 16 samples.

Results

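The expression of 8 genes of fibroblast growth factor (FGF) signalling was analysed in mouse embryonic stem cells (mESCs): the ligands Fgf4, Fgf8, Fgf15 and Fgf17 and the receptors Fgfr1, Fgfr2, Fgfr3 and Fgfr4. Every non-control probe whose RefSeq identifier belonged to these genes was taken, which gave 15 probes for the 8 genes among 21154 genes with a probe. Of the 15 probes, 13 gave a signal well above background throughout at least 1 group and were tested, and all 8 genes kept at least 1 tested probe. Of all genes, 13875 had a tested probe.

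Total RNA was hybridised to 16 one-colour arrays, 1 per sample, from 3 lines in 2 media. All lines descended from male J1 mESCs. J1 is the wild type, TKO cells lack Dnmt1, Dnmt3a and Dnmt3b and with them the enzymes that methylate DNA, and 3B3l cells (3B3-3l in the labels) lack Dnmt3a and Dnmt3b and carry constitutively expressed Dnmt3b and Dnmt3l. Serum groups were grown in serum with LIF, and 2i groups for 2 weeks in serum-free N2B27 with LIF, 1 µM PD0325901, which inhibits MEK, and 3 µM CHIR99021, which inhibits GSK3. There were 4 arrays of J1 in serum and 3 in 2i, 2 of TKO in serum and 3 in 2i, and 2 of 3B3l in each medium. The groups are named J1-serum, J1-2i and so on. Serum cultures of J1 had a layer of inactivated feeder cells, as the methods state, and the other lines grew on gelatin without feeders. The methods name feeders for J1 in serum only and the paper describes gelatin for 2i cultures, so in J1 the effects of medium and feeders cannot be told apart. Nothing in the labels says that replicates came from separate cultures, so p-values measure the spread between these samples, which may be technical.

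FGF ligands are secreted and bind receptor tyrosine kinases together with heparan sulphate, and the receptors signal through RAS, RAF, MEK and ERK, the pathway that PD0325901 blocks at MEK. In mESCs Fgf4 is the main autocrine ligand, and ERK signalling prepares the cells to leave self-renewal. In the blastocyst, epiblast cells secrete Fgf4 and primitive endoderm precursors respond to it through Fgfr1 and Fgfr2.

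Values are log2 signals minus the 75th percentile of the array, so that 0 is the 75th percentile and negative values are dimmer. Where a gene had several probes, the brightest on average over the 16 arrays stands for it. A difference was called where it was at least 2-fold with an adjusted p no higher than 0.05. Arrays had 39.7% to 49.0% of their non-control spots well above background, and the number of arrays limits the precision. As a check of the deleted genes, the Dnmt1 probe averaged -1.68 in TKO-serum against 1.81 in J1-serum but was well above background on all TKO arrays, and the Dnmt3a probe did not rise well above background in TKO or 3B3l. All 3 Dnmt3b probes were lower in TKO-serum (-0.34, -1.27 and 0.35) than in J1-serum (2.96, 2.51 and 4.23), yet well above background there and in TKO-2i. In 3B3l-serum the same probes were at 5.53, -0.999 and 0.78, so that only 1 of them was above J1-serum. Whether these probes lie in the deleted parts is not given in the sources used here. The 8 mESC marker genes were well above background on all arrays. Of 8 primitive endoderm markers, all were detected on every J1-serum array, where their summed signal was 38.7 to 48.3 times the 75th percentile, against 4.46 to 11.9 in the other 5 groups. Of 18 fibroblast or feeder genes, 12 were detected on every J1-serum array, with a summed signal of 79.0 to 94.8 against 32.7 to 70.4 elsewhere, while Lum, Fbn1 and Cthrc1 were not well above background on any J1-serum array. All 3B3l arrays were on slide 3 together with J1-serum replicate 1, and the other 11 arrays were on slides 1 and 2. The lowest detected signal was -2.32 to -2.18 on the 3B3l arrays and -2.92 to -2.34 on the others. A dim probe could thus be undetected in 3B3l at a level detected elsewhere.

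Because the lines differ in DNA methylation, the 250 bases before the annotated start of members are printed with every CpG, the site of methylation, in capitals. The RefSeq table (GRCm38.p6) held a promoter for 4 of the 8 members, Fgf4, Fgfr2, Fgfr3 and Fgfr4.
Fgf4, chr7:144861136-144861385, + strand: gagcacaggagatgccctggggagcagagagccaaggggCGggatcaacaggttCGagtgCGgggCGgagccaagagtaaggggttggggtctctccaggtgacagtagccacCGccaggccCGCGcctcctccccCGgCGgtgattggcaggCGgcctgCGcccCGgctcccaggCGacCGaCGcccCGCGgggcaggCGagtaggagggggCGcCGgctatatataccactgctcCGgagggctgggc
Fgfr2, chr7:130266809-130267058, - strand: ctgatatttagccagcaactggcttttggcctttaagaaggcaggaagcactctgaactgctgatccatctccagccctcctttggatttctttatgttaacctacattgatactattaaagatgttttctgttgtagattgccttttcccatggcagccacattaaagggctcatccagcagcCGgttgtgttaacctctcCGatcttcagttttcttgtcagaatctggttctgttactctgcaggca
Fgfr3, chr5:33721474-33721723, + strand: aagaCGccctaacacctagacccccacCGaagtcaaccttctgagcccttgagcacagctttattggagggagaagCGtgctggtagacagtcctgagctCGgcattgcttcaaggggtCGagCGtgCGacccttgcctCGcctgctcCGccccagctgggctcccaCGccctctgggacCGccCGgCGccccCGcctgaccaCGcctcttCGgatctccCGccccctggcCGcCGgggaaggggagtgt
Fgfr4, chr13:55152568-55152817, + strand: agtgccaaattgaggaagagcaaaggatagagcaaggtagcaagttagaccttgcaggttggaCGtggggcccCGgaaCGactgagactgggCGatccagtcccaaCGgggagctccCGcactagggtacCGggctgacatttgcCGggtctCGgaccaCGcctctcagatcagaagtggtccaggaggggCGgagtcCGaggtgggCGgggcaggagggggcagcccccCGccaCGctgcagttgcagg
These windows held 21 CpGs in Fgf4, 19 in Fgfr3, 15 in Fgfr4 and 2 in Fgfr2, against a median of 6 over 32851 RefSeq promoters of the same length (quartiles 2 and 16). A second Fgfr3 start in the table had 24. The core of the TCF/LEF motif, CTTTGA, was searched on both strands and was in none of them, against 13.83% of all promoters. The ETS core, CCGGAA, was in the Fgfr4 window only, against 12.03% of all promoters. A match is a description of the letters and does not show binding.

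Fgf4 was well above background on all 16 arrays and varied little within groups (SD 0.11 on the log2 scale, at the 9.86th percentile of tested probes). In J1 it was 4.38, 4.70, 4.71 and 4.81 in serum and 4.99, 5.002 and 4.91 in 2i. In TKO it was 4.15 and 4.21 in serum and 4.68, 4.68 and 4.59 in 2i. In 3B3l it was 3.85 and 3.83 in serum and 3.63 and 3.78 in 2i. All 3B3l arrays thus lay below all J1 and TKO arrays, and in J1 and TKO the 2i arrays lay above the serum arrays. The difference between 2i and serum was 0.31 in J1 (SE 0.10, adjusted p = 0.019), 0.47 in TKO (SE 0.12, adjusted p = 0.0086) and -0.13 in 3B3l (SE 0.13, adjusted p = 0.57), each under 2-fold. In 2i, Fgf4 was lower in 3B3l than in J1 by 2.39-fold (log2 difference -1.26, SE 0.12, adjusted p = 6.5e-06), the largest difference of this gene between lines. No slide held both groups, and with the slide as a block, which rests on J1-serum replicate 1, the difference was -0.90 (adjusted p = 0.0025), under 2-fold. In serum the corresponding value was -0.81 (adjusted p = 7.1e-05), and -0.54 within slide 3 (2 arrays against 1).

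Fgf15, an FGF of the endocrine subfamily, was measured in serum and fell in 2i in all 3 lines. In serum it was 0.32, 0.03, -0.05 and 0.11 in J1, 1.95 and 2.37 in TKO and -0.33 and -0.75 in 3B3l, well above background on all 8 arrays. In 2i its probe was not well above background on any of the 8 arrays. The groups did not overlap in any of the lines, and Fgf15 fell at least 6.90-fold in J1 (adjusted p = 1e-09). The fall was at least 26.0-fold for TKO (adjusted p = 2.6e-10) and at least 3.44-fold for 3B3l (adjusted p = 4.1e-08). In serum TKO was 4.16-fold above J1 (log2 difference 2.06, SE 0.19, adjusted p = 2.7e-06), and the fitted log2 difference of the 2i responses, TKO minus J1, was -2.40 (SE 0.26, adjusted p = 2.5e-05). Neither 2i group was well above background on any array, so the size of that difference rests on unmeasured 2i signals. Fgf15 starts 31.3 kb downstream of the end of Fgf4 on chromosome 7 (Fgf4 144861386-144865245, Fgf15 144896532-144900953, GRCm38.p6). Over the 16 arrays, which share line and medium, the probes of these neighbours had a Pearson r of -0.16.

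Fgf8, which patterns the gastrula, was dim. Its brightest probe was -2.06, -1.71, -2.03 and -1.56 in J1-serum, -2.15, -2.05 and -2.32 in J1-2i, -1.07 and -1.53 in TKO-serum, -2.45, -2.19 and -1.99 in TKO-2i, -1.40 and -1.28 in 3B3l-serum and -1.77 and -2.14 in 3B3l-2i. The serum arrays of TKO and 3B3l were the highest and lay above all their 2i arrays, and no difference of this probe was called. The difference nearest the limit was that of 2i against serum in TKO (-0.91, SE 0.20, adjusted p = 0.0032). Another Fgf8 probe was well above background on the TKO-serum arrays only (-1.18 and -1.76). For it TKO-serum was at least 2.16-fold above J1-serum (adjusted p = 0.00096) and at least 2.10-fold above TKO-2i (adjusted p = 4.1e-05). The probe passed the filter through TKO-serum alone, so these p-values are not independent of the filter. It was also called lower in 2i in J1 and 3B3l, where neither medium gave a signal well above background, so that no fold is given. Both calls were lost with normexp correction (-0.70 and -0.92), and that in 3B3l also without 3B3l-2i replicate 2 (-1.48). The third Fgf8 probe was not well above background on any array.

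Fgf17, of the same subfamily as Fgf8, varied widely between replicates in J1 and TKO. Its values were 1.19, 2.81, 3.17 and 1.06 in J1-serum, 2.90, 3.11 and 1.69 in J1-2i, and 2.38 and 1.04 in TKO-serum. In TKO-2i they were 3.64, 0.75 and -0.73, and the 3B3l arrays ranged from 0.26 to 0.85. The SD within groups was 1.25, higher than in 99.23% of tested probes, and all arrays were well above background. The groups overlapped in every comparison except 3B3l with J1, where the 3B3l arrays were lower (-1.51 in serum and -1.82 in 2i). No difference was called, the smallest adjusted p being 0.18. Without TKO-2i replicate 1, the array at 3.64, TKO-2i was called lower than J1-2i (-2.56).

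**Figure D1:**
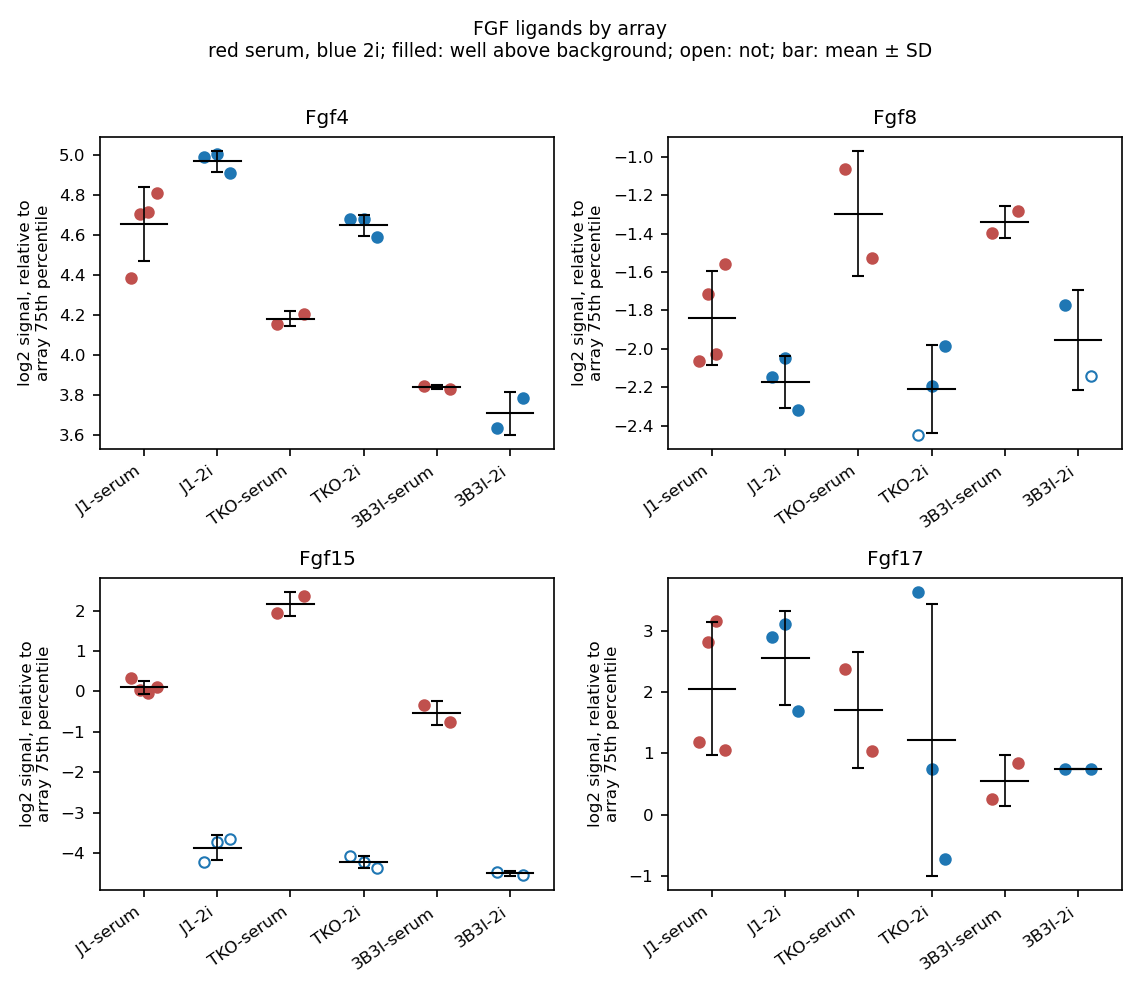
Signals of the 4 ligands on each array (log2, with 0 at the array's 75th percentile, a panel for each gene) in the 6 groups of line and medium, with means and SD. Fgf15 is at -0.75 to 2.37 in serum with filled points and not well above background (open points) in 2i, Fgf4 is lowest in 3B3l, and the Fgf17 replicates spread over most of the panel.

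Fgfr1, an FGF receptor of the pluripotent epiblast, was well above background on every array for all 3 of its probes. Its brightest probe was 1.20, 1.83, 1.76 and 1.77 in J1-serum, 1.12, 1.00 and 1.25 in J1-2i, 2.34 and 1.14 in TKO-serum, 1.68, 1.51 and 1.32 in TKO-2i, 1.34 and 1.67 in 3B3l-serum and 1.16 and 1.11 in 3B3l-2i. The groups overlapped in most comparisons, and no difference of this probe was called, the largest being that of 2i against serum in J1 (-0.52, SE 0.24, adjusted p = 0.095). TKO-serum replicate 1 stood apart, with 2.34, 0.92 and -1.08 on the 3 probes against 1.14, -0.56 and -0.11 in replicate 2. The probe at 0.92 was called lower in 2i in TKO (-1.08, SE 0.37, adjusted p = 0.042), which was -0.34 without that array. The same probe was called higher in 3B3l than in J1 in 2i (1.05, SE 0.37, adjusted p = 0.039), and with the slide as a block it was 0.31.

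Fgfr2, whose splice forms bind different ligands, was well above background in serum in J1 and TKO only. It was -2.41, -1.93, -2.08 and -2.14 in J1-serum and -1.96 and -1.62 in TKO-serum. On the 10 arrays of the other 4 groups it was not well above background. The fall in 2i was at least 1.45-fold in J1 (log2 difference -2.38, SE 0.27, adjusted p = 1e-05) and at least 1.68-fold in TKO (-2.41, SE 0.32, adjusted p = 8.2e-05). The serum signals themselves lay close to the lowest detected signal of their arrays. In 3B3l the probe was -2.43 and -3.27 in serum and -3.54 and -3.74 in 2i, and no fold is given. The -2.43 in 3B3l-serum was not well above background, while the -2.41 in J1-serum was. J1-serum and TKO-serum overlapped (0.35, SE 0.31, adjusted p = 0.41). The summed primitive endoderm markers were 38.7 to 48.3 in J1-serum and 8.45 to 8.79 in TKO-serum, and their part in the Fgfr2 signal was not tested. The second Fgfr2 probe was not well above background on any array.

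Fgfr3 gave different results on its 2 probes. The brighter by mean, A_65_P06147, was -1.93 to -1.50 in J1-serum, -2.26 to -2.01 in J1-2i, -2.28 and -1.77 in TKO-serum and -2.10 to -1.99 in TKO-2i, and was not well above background in 3B3l. Its -2.17 on 3B3l-serum replicate 2 was not well above background, while its -2.28 in TKO-serum was. This probe did not pass the test for 2i against serum in any line. In 2i it was called lower in 3B3l than in J1, by at least 1.15-fold (-1.13, SE 0.38, adjusted p = 0.032), a value that was -0.21 without 3B3l-2i replicate 1 and -0.81 with the slide as a block. The other probe, A_55_P1996578, was -0.80, -0.64, -0.39 and -0.27 in J1-serum and -1.63 and -2.05 in TKO-serum. It was not well above background on any other array. For this probe the fall in 2i was at least 4.45-fold in J1 (adjusted p = 1.3e-07) and at least 1.62-fold in TKO (adjusted p = 0.00038), TKO-serum was 2.48-fold below J1-serum (-1.31, SE 0.31, adjusted p = 0.0044), and 3B3l-serum was at least 3.31-fold below J1-serum (adjusted p = 1.4e-05). The call between TKO and J1 in serum was lost without TKO-serum replicate 2 (-1.11).

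Fgfr4 was highest in J1-serum on both probes. Its brighter probe was -0.72, -0.55, -0.48 and -0.46 in J1-serum and between -1.92 and -0.94 on the other 12 arrays, without overlap. The difference was called for 3B3l against J1 in serum (-1.06, SE 0.19, adjusted p = 0.00055), was -0.90 within slide 3 and with the slide as a block, and was -0.76 without 3B3l-serum replicate 1. Its other probe was -0.17, -0.19, -0.27 and -0.06 in J1-serum and between -3.08 and -1.65 on the other arrays, not all of which were well above background. On that probe 2i was 5.09-fold below serum in J1 (-2.35, SE 0.19, adjusted p = 4.1e-07), with J1-2i replicate 1 not well above background. In serum TKO was 3.31-fold below J1 (-1.73, SE 0.21, adjusted p = 3.6e-05) and 3B3l at least 4.24-fold below J1 (adjusted p = 6e-07), also as -2.76 within slide 3. The brighter probe gave smaller differences, under 2-fold, of -0.67 for 2i in J1 (adjusted p = 0.0052) and -0.59 for TKO against J1 in serum (adjusted p = 0.026).

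**Figure D2:**
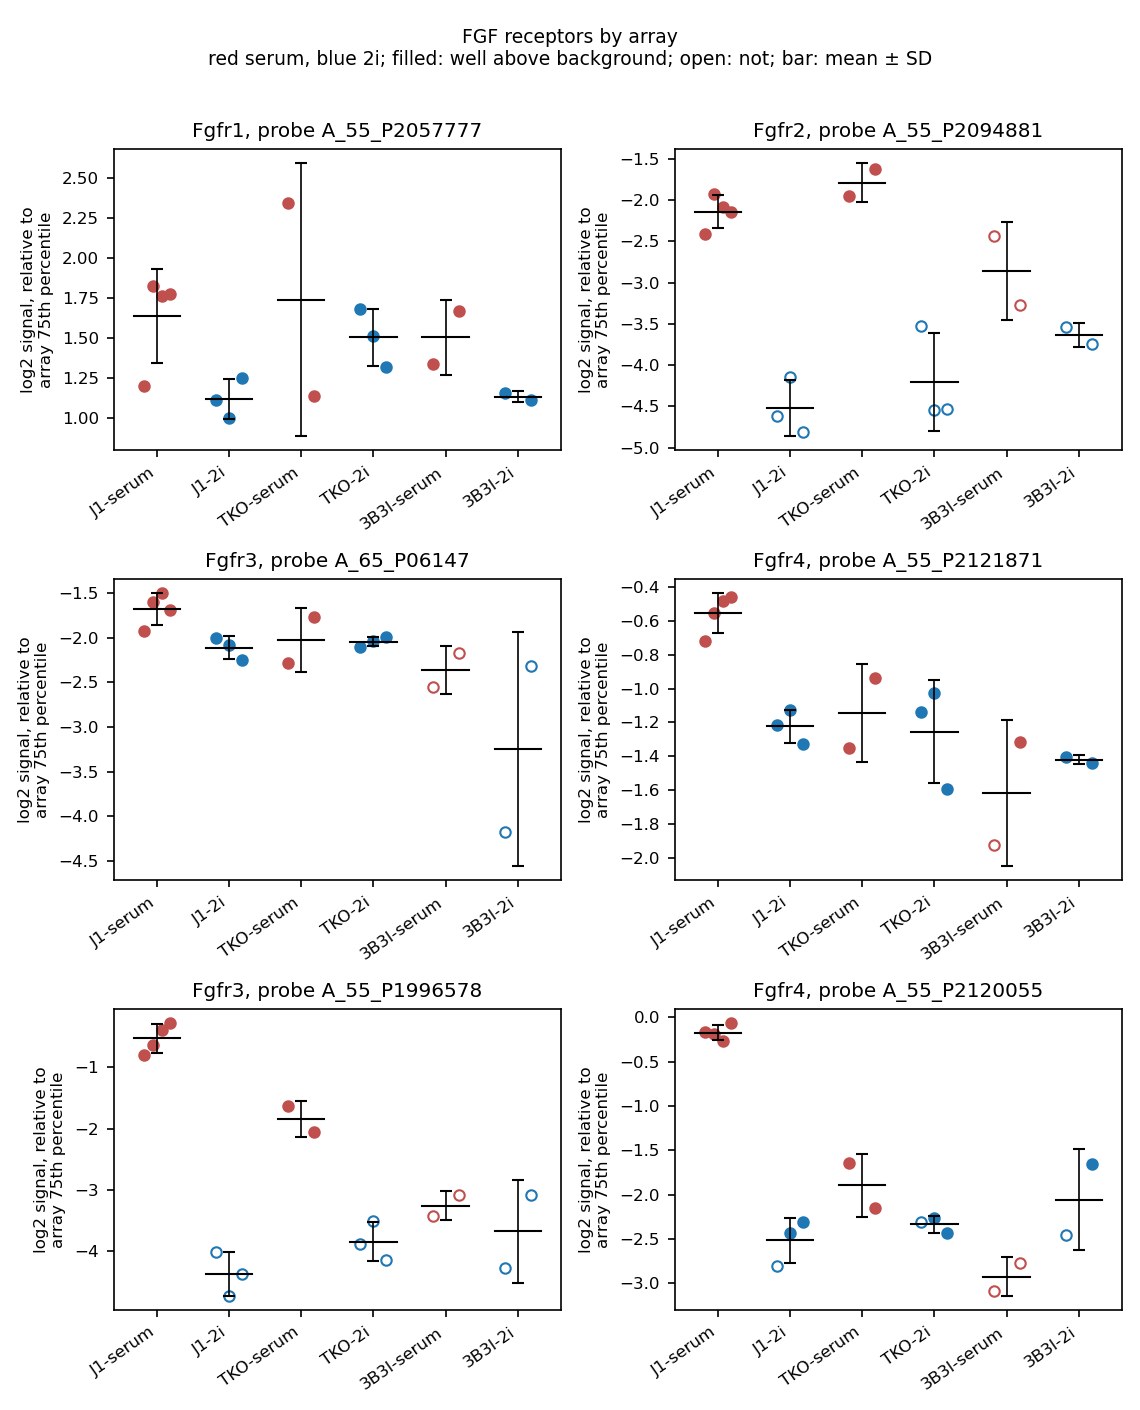
Signals of the 4 receptors on each array (log2, with 0 at the array's 75th percentile), with a second probe for Fgfr3 and Fgfr4, in the 6 groups. Fgfr4 and the lower Fgfr3 panel are highest on the 4 J1-serum arrays, Fgfr2 is well above background in J1-serum and TKO-serum only, and Fgfr1 is well above background everywhere.

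J1-serum, the group in which Fgfr3 and Fgfr4 were highest, was also the group with the highest primitive endoderm and fibroblast signals and the group grown on feeders. All 8 primitive endoderm markers fell in 2i in J1 (median log2 difference -4.41), and all 8 were lower in serum in TKO (median -3.03) and in 3B3l (median -2.86) than in J1. Of the 14 fibroblast genes tested, 12 fell in 2i in J1, 10 were lower in TKO-serum and 7 in 3B3l-serum than in J1-serum. In each of the latter 2 comparisons 1 gene was called higher. Over all genes 12.6% were called lower with 2i in J1. In serum 16.5% of genes were called in either direction in TKO against J1 and 19.3% in 3B3l against J1. The part of other cell types in these receptor signals was not tested. In these bulk RNA samples fewer cells that express a receptor and less of its RNA per cell cannot be told apart.

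**Figure D3:**
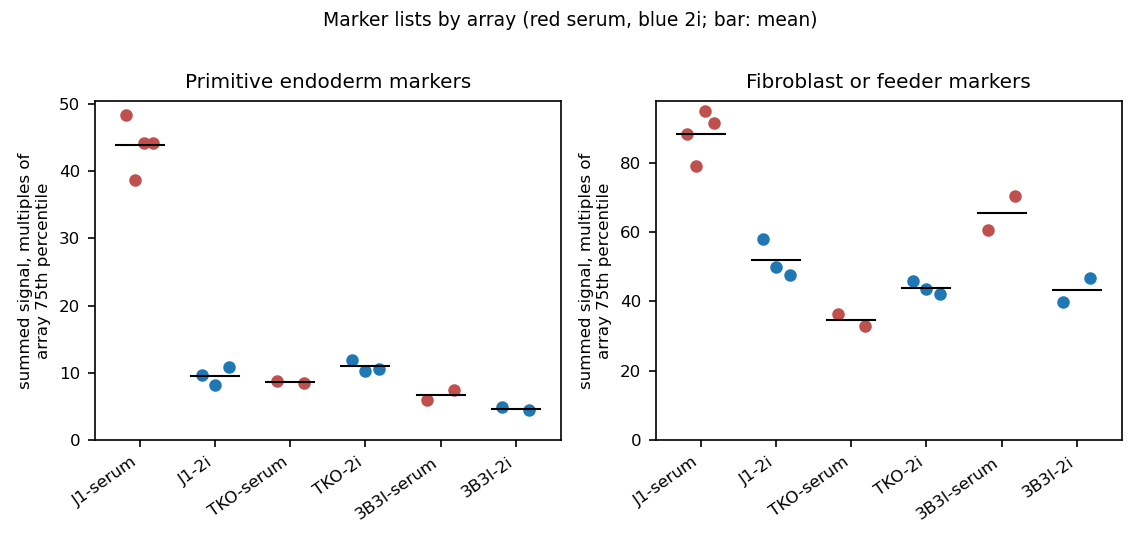
Summed signal of the 8 primitive endoderm and the 18 fibroblast or feeder markers on each array, in multiples of the 75th percentile of the array, in the 6 groups. The J1-serum arrays are at 38.7 to 48.3 for primitive endoderm markers, and the other arrays at 4.46 to 11.9.

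Counted by the brightest probe, 2 of 8 members changed with 2i in J1 (Fgf15 and Fgfr2, both lower), where 22.7% of 13866 genes were called. In TKO the same 2 genes fell, where 15.8% of genes were called, and in 3B3l only Fgf15 was called, where 13.6% of genes were. With any probe of a gene counted, the calls were 5 members for J1, 5 for TKO and 2 for 3B3l, all of them lower, where 25.3%, 17.7% and 14.9% of genes had a called probe. In J1 and 3B3l these include Fgf8, by a probe not well above background in either medium there. In TKO they include Fgfr1, by a probe whose difference was -1.08, and -0.34 without TKO-serum replicate 1. The members had a median difference of -0.48 for J1, -0.36 for TKO and -0.49 for 3B3l, beside 0.05, 0.07 and 0.00 over all genes.

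**Figure D4:**
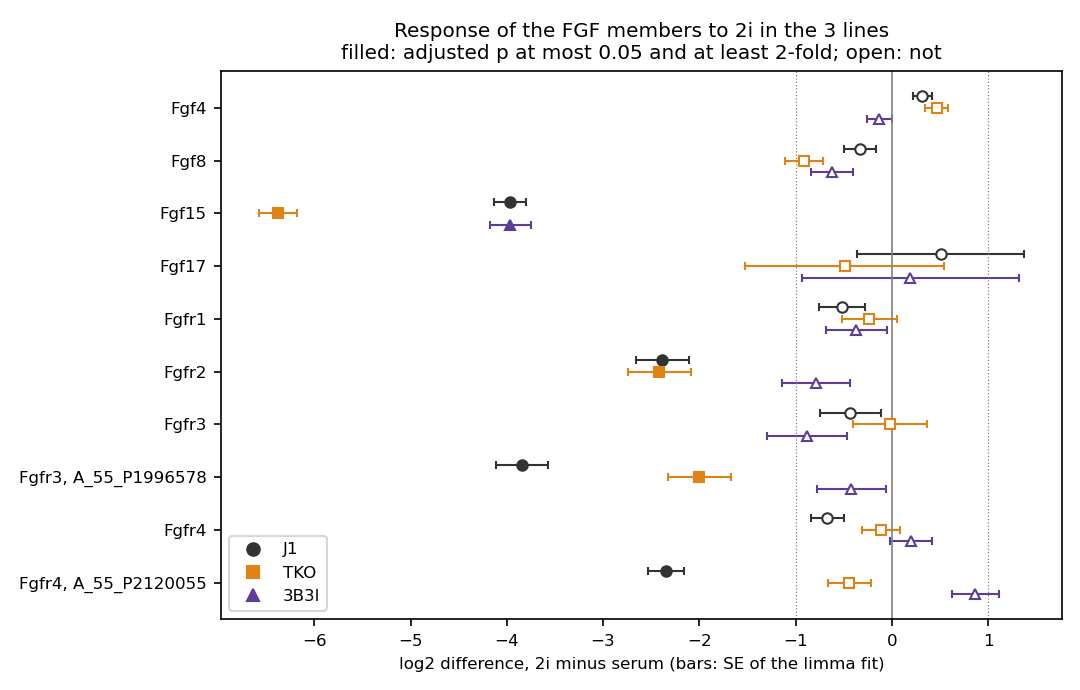
Log2 difference of 2i minus serum with its SE in J1, TKO and 3B3l for the brightest probe of each member and the second probe of Fgfr3 and Fgfr4. Fgf15, Fgfr2 and the second Fgfr3 probe are plotted against 2i signals not well above background, so the order of their points cannot be read, and Fgf4, Fgf8, Fgf17 and Fgfr1 stay within 1 of 0.

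Between lines in serum, 1 of 8 members was called by the brightest probe in TKO (Fgf15, higher), where 16.5% of genes were called, and 1 in 3B3l (Fgfr4, lower), where 19.3% were. With any probe the counts were 4 in TKO (Fgf15 and Fgf8 higher, Fgfr3 and Fgfr4 lower) and 2 in 3B3l (Fgfr3 and Fgfr4, lower), where 19.1% and 22.6% of genes had a called probe. The Fgf8 probe counted here passed the filter through TKO-serum alone. In 2i no member was called between TKO and J1 on any probe, where 7.34% of genes were called and 8.47% had a called probe. At an unadjusted p under 0.05 there was 1 member, Fgf4 (-0.32, SE 0.11, adjusted p = 0.047), 1.25-fold lower in TKO, beside 9628 of 26967 probes over all genes. In 2i, 2 members were called lower in 3B3l than in J1 by the brightest probe (Fgf4 and Fgfr3), where 14.4% of genes were called, and with any probe also Fgfr1, higher, where 16.9% had a called probe.

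The 2i responses themselves differed between lines for 1 of 8 members in TKO against J1 (Fgf15) and 1 in 3B3l against J1 (Fgfr2, 1.60, SE 0.45, adjusted p = 0.019), where 15.3% and 17.3% of genes were called. The Fgfr2 call was lost without 3B3l-2i replicate 1 (1.50) and without 3B3l-serum replicate 2 (1.18), and none of its 3B3l arrays was well above background. With any probe the counts were 4 in TKO and 3 in 3B3l, where 17.4% and 19.9% of genes had a called probe. These comparisons share the J1 arrays, including those of J1-serum. For the second Fgfr3 probe the fitted differences of responses were 1.84 in TKO (SE 0.43, adjusted p = 0.0065) and 3.42 in 3B3l (SE 0.45, adjusted p = 0.00011). This probe was not well above background in 2i in any line or in 3B3l-serum, so that no fall could be measured in 3B3l and these sizes rest on unmeasured signals. For the second Fgfr4 probe the difference of responses in TKO was 1.91 (SE 0.29, adjusted p = 0.00043). Its 2i difference was -2.35 in J1 and -0.44 in TKO, the latter not called (adjusted p = 0.17). This probe was well above background on 2 of 3 2i arrays in each of these lines. In 3B3l its fitted difference was 3.22 (SE 0.31, adjusted p = 9.3e-06), with neither 3B3l-serum array well above background.

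Downstream of the receptors, 9 feedback regulators and targets of ERK were called lower in 2i in all lines, among them Fosl1, for which no fall was measured in TKO and 3B3l. Of 17 tested genes of this list, 11 were lower for J1, 9 for TKO and 10 for 3B3l, and none was called higher. Over all genes 12.6%, 9.09% and 7.97% were called lower. The median difference was -1.74, -1.08 and -1.31, beside 0.05, 0.07 and 0.00 over all genes. The 9 genes lower in all 3 lines were Dusp4, Dusp5 and Dusp6, phosphatases that switch off MAP kinases, Spry4, an inhibitor of receptor tyrosine kinase signalling, and the transcription factors and early response genes Egr1, Fos, Fosl1, Ier3 and Myc. Spry4 fell at least 4.72-fold in J1 (adjusted p = 1.5e-07). It was well above background on 1 of 3 TKO-2i arrays (-3.41, a size that rests partly on unmeasured signals) and on all 3B3l arrays, where the difference was -1.31. Dusp4 fell at least 13.4-fold in J1, and in TKO and 3B3l at least 3.88-fold and at least 25.5-fold. Dusp6, well above background on all arrays, had log2 differences of -2.15 for J1, -1.39 for TKO and -1.74 for 3B3l. Fosl1 was not well above background in TKO and 3B3l in either medium, so its calls there, which are in the counts, rest on unmeasured signals. Some differences in the list went the other way by under 2-fold, and Il17rd, Etv5 and Etv4 are named here after their values were seen. The differences were positive for Il17rd, an antagonist of FGF signalling (0.51 in J1, adjusted p = 0.00041, and 0.64 in TKO, adjusted p = 0.00046), and Etv5, an ETS transcription factor (0.48 in J1, adjusted p = 0.00056). Etv4, another ETS factor, fell in J1 (-1.27, adjusted p = 1.7e-06), while its difference was 0.51 in TKO (adjusted p = 0.016) and 0.53 in 3B3l (adjusted p = 0.027), both under 2-fold. The difference of responses of Etv4 was called in both lines (1.78 in TKO minus J1, adjusted p = 2.1e-05, and 1.80 in 3B3l minus J1, adjusted p = 2.6e-05). In serum the same list had 8 of 17 genes higher and 2 lower in 3B3l than in J1 (median 0.90, beside 0.13 over all genes), and 3 higher and 4 lower in TKO (median 0.13, beside 0.01), where 19.3% and 16.5% of all genes were called.

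**Figure D5:**
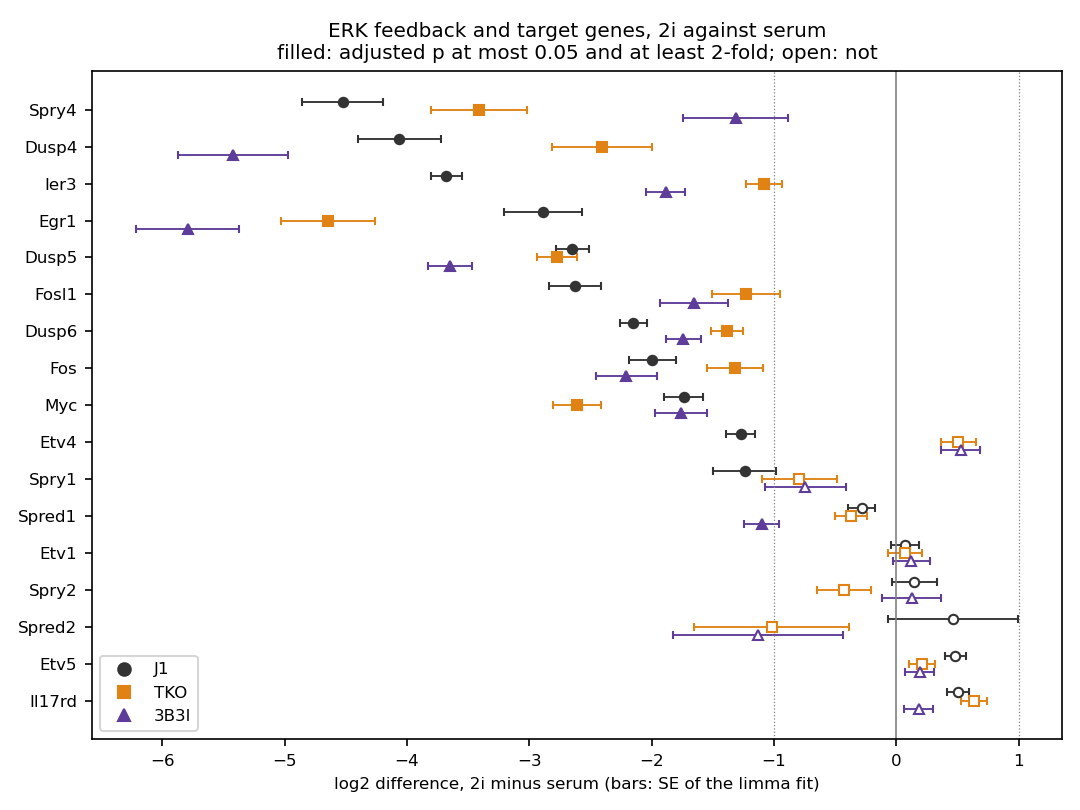
Log2 difference of 2i minus serum with its SE in the 3 lines for the 17 tested ERK feedback and target genes, ordered by the J1 value. The 9 genes from Spry4 to Myc have filled points in all 3 lines, and the genes from Spred1 to Il17rd are not called in J1.

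Other ligands, co-receptors and relay genes were counted in the same way, and 22.7%, 15.8% and 13.6% of all genes were called with 2i in J1, TKO and 3B3l. Of 10 tested other FGF ligands, 3 were lower and 0 higher with 2i in J1, 3 lower and 1 higher in TKO, and 1 lower and 2 higher in 3B3l. Fgf18 fell in J1 (-2.29, SE 0.19, adjusted p = 6.6e-07) and in TKO (-2.27, SE 0.23, adjusted p = 7.1e-06). It was well above background on 1 of 3 J1-2i arrays, so its size in J1 rests partly on unmeasured signals. Fgf1 fell at least 2.64-fold in J1 and at least 3.49-fold in TKO. In 3B3l the differences of Fgf18 and Fgf1 were -0.78 and -0.87, not called, and Fgf1 was not well above background there in either medium. Of 22 tested co-receptor and heparan sulphate genes, 6 were lower and 3 higher in J1, 5 lower and 0 higher in TKO, and 7 lower and 1 higher in 3B3l. Fgfbp1 and Fgfbp3, which carry FGFs out of the matrix, and Hs6st2, a heparan sulphate sulfotransferase, were lower in all 3 lines. Hs6st2 fell at least 2.87-fold in J1, and in TKO and 3B3l at least 5.39-fold and at least 2.10-fold. Sulf2, which removes sulphate groups from heparan sulphate, and Hs6st1 were called higher in J1 (1.22 each). Their differences were 0.48 and 0.41 in TKO and -0.17 and 0.58 in 3B3l, not called. Of 19 tested genes of the relay from receptor to ERK, 2 were lower for J1, 1 for TKO and 0 for 3B3l, where 1 was higher. The 2 in J1 were Ksr1, a scaffold of the pathway, which fell at least 3.59-fold, and Mapk3, which encodes ERK1 (-1.14, SE 0.09, adjusted p = 4.8e-07). The Mapk3 difference was -0.69 in TKO and -0.56 in 3B3l, under 2-fold.

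The genes with the most similar pattern over the 16 arrays, out of 13628 compared, were found for each member by Pearson r, which here mainly reads the shared lines and media and is a description. For Fgf15 they were Aass (0.99), Actn3 (0.97) and Trim36 (0.97), and for Fgfr2 Trim36 (0.97), Trim67 (0.96) and Dlk1 (0.96), while Fgf15 and Fgfr2 had an r of 0.91 with each other. For Fgf4 they were Armcx1 (0.96), Ldhd (0.95) and Dkk3 (0.95). For Fgf8 they were Fam170b (0.92), Flywch1 (0.91) and Jph4 (0.91), for Fgfr3 Dpp10 (0.90), Gas1 (0.87) and Anxa8 (0.87), and for Fgfr4 H2-Ab1 (0.93), Usp17ld (0.91) and Rab30 (0.91). The lowest values were those of Fgf17, with Dlx6os2 (0.81), Syt6 (0.79) and Il27ra (0.78), and of Fgfr1, with Ppp1r12c (0.84), Gfpt2 (0.83) and Mrtfa (0.83).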

How the data were processed

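Total RNA was labelled with Cy3 and hybridised to Agilent mouse expression arrays. Per the file headers the deposited scanner files hold, for each spot, a processed signal, which is a background-subtracted and detrended intensity from Agilent Feature Extraction 11.5.1.1, with no normalization between arrays. A second deposited file, a table of log2 values that the authors normalized between arrays, was used only as an alternative because 13 of its 16 columns matched another replicate of the same group better than the replicate named. Differences in log2 signal were tested with limma 3.58.1 in R 4.3.3 (lmFit and eBayes, 6 group means, all 16 arrays, no covariate, two-sided, Benjamini-Hochberg over all tested probes). Processed signals were taken to log2 and scaled by subtracting the 75th percentile of the array's non-control spots. Outlier spots were left out, spots of a probe were averaged, and a probe was detected where at least 50% of its spots were flagged as well above background. Of 55681 non-control probes, 26993 were detected throughout at least 1 group and were tested. Genes were named through RefSeq identifiers, for 28026 probes.

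Where a probe was not well above background on any array of a group, the fold is given as at least the bright group's mean over the dim group's mean of the higher of the array's lowest detected signal and the probe's own. The members and gene lists were chosen with earlier results of these data known, and no list was tested as a set. Named were all 8 members, the 3 most similar genes of each, and list genes that changed the same way in 3 lines or most in J1 (up to 2 in each direction). The fit was tested on simulated data. Alternatives were quantile, array median and normexp (offset 50) processing, other filters, the authors' table, slide and replicate blocks, an unpaired t-test, the mean of a gene's probes, no fold limit, and leaving out each array.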

Additional observations from a re-analysis of the deposited data

Results flagged for a closer look

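The 2i response differed between lines by the test of the difference itself in 7 cases. Over all tested probes 3777 of 26931 were called for TKO minus J1 and 4153 of 26949 for 3B3l minus J1. In TKO minus J1 these were Fgf15 (-2.40), the second Fgfr3 probe (1.84), the second Fgf8 probe (-1.36) and the second Fgfr4 probe (1.91). The Fgf8 probe was not well above background on any J1 array, and its call (limma adjusted p = 0.044) was lost with normexp correction (-0.91), with no filter, with the slide as a block (-1.43), and without J1-serum replicate 1, 2 or 3, J1-2i replicate 1 or 3, TKO-serum replicate 1, TKO-2i replicate 2 or 3 or any of the 3B3l arrays (-1.36 to -1.07). In 3B3l minus J1 the cases were the second Fgfr3 probe (3.42), Fgfr2 (1.60) and the second Fgfr4 probe (3.22). In 2i, Fgf15, Fgfr2 and the second Fgfr3 and Fgf8 probes were not well above background in any of the lines compared, so the sizes of their differences rest on unmeasured signals. Within J1-serum, the only group of 4 arrays, 3 of 13 probes had an array far from the other 3, all of them of Fgfr1, and chance gives about 1 in 20. The gap took 0.887 of the range for replicate 4 on probe A_55_P1967015, and 0.954 and 0.898 for replicate 1 on probes A_55_P1967022 and A_55_P2057777. The latter array was the only J1 array on slide 3.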

How the results depend on the processing

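Counts are members called by the brightest probe, of 8. Quantile normalization and the authors' table each gave 2 for 3B3l against J1 in serum (Fgf4 and Fgfr4) in place of 1 and added Fgf15 in 2i (-1.04 and -1.06), where it was not well above background on any array, and array median scaling and no filter left all 9 counts within 1.5 times, although array median scaling moved the median over all probes for 2i in J1 from 0.05 to 0.21. Normexp correction gave 1 in place of 2 for 3B3l against J1 in 2i and 0 in place of 1 for the difference of responses of 3B3l. Among probes well above background on all 16 arrays, the counts were 0, except 1 (Fgf4) for 3B3l against J1 in 2i, because Fgf15, Fgfr2 and Fgfr4 were not kept. The slide as a block gave 0 for 3B3l against J1 in serum and in 2i, and as a random block 1 for the latter. With no fold limit the counts were 4, 4 and 1 for 2i in J1, TKO and 3B3l, 4 and 1 for TKO against J1 in serum and 2i, 4 and 4 for 3B3l, and 1 and 2 for the differences of responses. With the mean of a gene's probes they were 4, 4 and 2, then 3 and 0, 2 and 1, and 2 and 3, and the Fgfr3 difference of responses of 3B3l turned from -0.45 to 1.49. An unpaired t-test, run for 7 comparisons, gave 1 for 3B3l against J1 in 2i at an unadjusted p, and after Benjamini-Hochberg 1 in TKO and 0 in 3B3l for 2i and 1 for 3B3l against J1 in 2i. Leaving out an array in turn gave 2 to 2, 2 to 3 and 1 to 2 for 2i in J1, TKO and 3B3l, 1 to 1 and 0 to 1 for TKO against J1 in serum and 2i, 1 to 1 and 1 to 2 for 3B3l, and 1 to 1 and 0 to 2 for the differences of responses of TKO and 3B3l. Without 3B3l-serum replicate 1 the single call in 3B3l against J1 in serum was Fgfr2 (-1.13, adjusted p = 0.032) in place of Fgfr4 (-0.76). Calls were gained by Fgf8 for 2i in TKO without TKO-serum replicate 2 (-1.14) or TKO-2i replicate 3 (-1.02), by Fgfr3 for 2i in 3B3l (-1.81) and its difference of responses (-1.38) without 3B3l-2i replicate 2, by Fgfr2 for 3B3l against J1 in 2i without J1-2i replicate 2 (1.07), and by Fgfr4 for the difference of responses of 3B3l without 3B3l-serum replicate 2 (1.17). The Fgfr3 call for 3B3l against J1 in 2i was also lost without any one of the J1-2i arrays (-1.20 to -1.08). Over single probes, 3061 of 3179 alternative values stayed on the same side of the call, 76 of them with a change of sign and no call on either side, while 71 lost the call, 46 gained it and 1 reversed. Dim probes limit Fgfr2, Fgfr3 and the Fgf15 folds to bounds.

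Correlations of deviations in same-numbered arrays were -0.12, 0.01 and -0.06 in J1 and 0.01 and -0.02 in TKO. In 3B3l the value was 0.29, a single value from 2 arrays in each group, which cannot settle whether replicate numbers paired the samples. The main fit used no pairing. With the replicate block the counts stayed at 2, 2 and 1 for 2i in J1, TKO and 3B3l, and Fgfr1 probe A_55_P1967022 lost its 2 calls (-1.07 in TKO, 1.04 in 3B3l).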

Other observations

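Fgf5, a ligand that marks the primed epiblast and 1 of the 10 other FGF ligands counted above, was chosen here after its values were seen. It was not well above background on any of the 7 J1 arrays or in 2i in any line, and was -1.91 and -2.01 in TKO-serum and 0.26 and 0.68 in 3B3l-serum. 3B3l-serum was at least 8.29-fold above J1-serum (limma adjusted p = 1.1e-09) and TKO-serum at least 1.54-fold above it (adjusted p = 1.1e-07), and it fell in 2i at least 6.92-fold in 3B3l and at least 1.49-fold in TKO. Primitive streak markers, a group not described above, had a summed signal of 29.9 to 57.8 times the 75th percentile in 3B3l-2i, against 0.74 to 8.32 in the other groups, while 5 of the 8 were not well above background there.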
